A study of Mus musculus with 2 samples.

Results

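Mir335, Mir296, Mir298, Mir483 and Mir675 are microRNA genes that lie in imprinted loci of the mouse genome other than the large Dlk1-Dio3 cluster. They were chosen by symbol: Mir335 in Mest, Mir296 and Mir298 in the Gnas region, Mir483 in Igf2 and Mir675 in H19. All 5 were found among the 1973 gene rows of each deposited table. Small RNA was sequenced from the hindbrain of healthy mouse embryos at 15.5 days, strain B6NCrl, in 2 libraries. Each library came from its own pool of hindbrains of both sexes, 78 embryos in replicate 1 and 62 in replicate 2. There was 1 group with no treatment and no mutant, so the levels of the genes and the difference between the pools are what could be measured.

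Imprinted genes are expressed mainly from the allele inherited from 1 parent, and many of them act on fetal growth. Mest, an alpha/beta-hydrolase-fold protein of mesodermal and neural tissue, and Igf2, a fetal growth factor, are expressed from the paternal allele in most fetal tissues. In the brain Igf2 is made chiefly by choroid plexus, meninges and vessels, and its alleles there were not measured. H19, a long noncoding RNA beside Igf2, is expressed from the maternal allele. Nespas, an antisense RNA of the Gnas domain, is paternally expressed, and miR-296 and miR-298 have been described as products of the same paternal allele. A microRNA pairs with messenger RNAs mainly through its seed, bases 2 to 8 from the 5′ end. The counts do not separate the parental alleles, and they do not separate the 5p and 3p arms of a hairpin, because reads were counted over the whole hairpin gene.

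The genome positions, on mm10 (GRCm38) with the GENCODE M21 annotation, place the 5 hairpins in introns, in an exon and outside other genes. Mir335 (ENSMUSG00000065501.1) lies at chr6:30741299-30741396 on the plus strand, in an intron of every Mest transcript that spans it. Mir483 (ENSMUSG00000070140.1) lies at chr7:142654924-142654996 on the minus strand, in an intron of Igf2. Mir675 (ENSMUSG00000076275.1) lies at chr7:142577064-142577147 on the minus strand, in exon 1 of 2 of the H19 transcripts and in exon 2 or an intron of 2 others. Mir296 (ENSMUSG00000065521.1) at chr2:174267047-174267125 and Mir298 (ENSMUSG00000065410.1) at chr2:174267504-174267585 lie on the minus strand, 378 bases apart and in no other annotated gene. The annotated Nespas transcripts end 13651 bases before Mir298 on the same strand.

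The mature arms are shown because they give the identity of what the reads represent, with the seed in capitals. Sequences are from RefSeq, build GRCm38.p6, and all 5 genes were matched by symbol.
miR-335-5p: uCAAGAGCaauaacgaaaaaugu
miR-335-3p: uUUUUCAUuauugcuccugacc
miR-296-5p: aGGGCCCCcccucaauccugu
miR-296-3p: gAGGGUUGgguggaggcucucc
miR-298-5p: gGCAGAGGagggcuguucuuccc
miR-298-3p: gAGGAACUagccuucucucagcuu
miR-483-5p: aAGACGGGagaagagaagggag
miR-483-3p: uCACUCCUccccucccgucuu
miR-675-5p: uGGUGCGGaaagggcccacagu
miR-675-3p: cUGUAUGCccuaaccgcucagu

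The 10 arms had 10 different seeds. None of these seeds occurred in any other of the 1738 mature mouse microRNAs of the same table, whereas 32.0% of those mature sequences had a seed that occurred more than once. Genes with several copies are counted in that share. The 2 neighbours Mir296 and Mir298 thus had no seed in common on either arm, nor did Mir483 and Mir675.

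The arms differed widely in base composition. The miR-335-5p arm was 30.4% G and C and 52.2% A, and miR-335-3p had U at 11 of its 22 bases. The miR-296-5p arm carried a run of 7 C, the longest run in any of the 10 arms, and was 66.7% G and C. The miR-483 arms were of opposite composition: miR-483-5p had 11 G, 10 A and no U among its 22 bases, and miR-483-3p was 57.1% C and 33.3% U.

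The hairpins with the highest and the lowest level, Mir335 and Mir675, are printed whole, since the reads were counted over this length. Capitals mark the 2 mature arms.
Mir335: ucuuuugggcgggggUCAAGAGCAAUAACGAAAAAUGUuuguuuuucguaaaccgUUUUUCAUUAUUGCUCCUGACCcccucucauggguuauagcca
Mir675: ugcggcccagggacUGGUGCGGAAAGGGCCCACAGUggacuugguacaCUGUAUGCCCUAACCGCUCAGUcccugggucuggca

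The hairpins spanned much of the range of the 426 genes with at least 10 reads in a library. Mir335 had 42.9% G and C and Mir296 63.3%, against a median of 51.0% over the 426. Mir675 had 63.1%, Mir483 58.9% and Mir298 53.7%. The predicted folding energy of Mir675 was -56.0 kcal/mol, or -0.667 per nucleotide, and 6 of the 426 hairpins had a lower energy per nucleotide. That of Mir335 was -0.452 per nucleotide, close to the median of -0.434, and that of Mir483 was -0.463. Mir296, at -0.547 per nucleotide, and Mir298, at -0.521, lay between these. A predicted energy describes the sequence and was not measured.

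**Figure D1:**
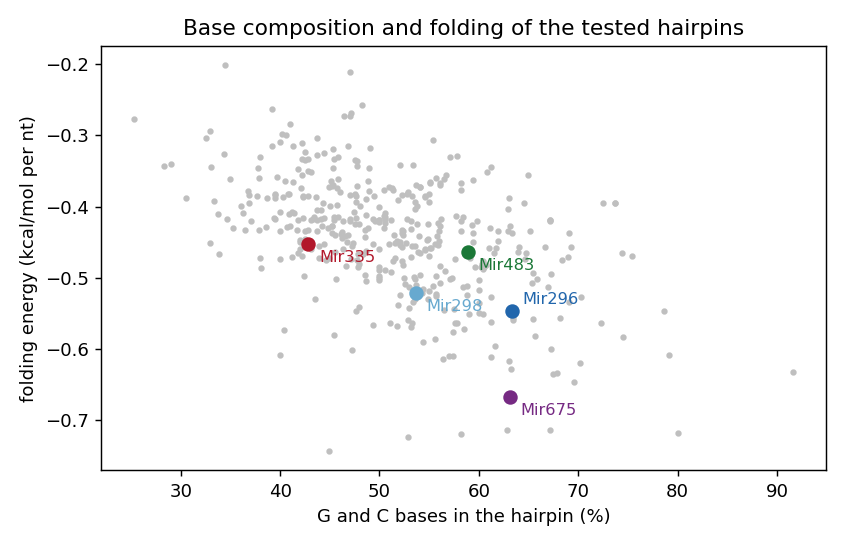
Share of G and C bases in the annotated hairpin (horizontal, percent) against predicted folding energy (vertical, kcal/mol per nucleotide) for the 426 tested genes (grey) and the 5 imprinted-locus genes (coloured). Mir335 lies at 42.9% G and C and Mir675 at the low end of the energies, at -0.667 per nucleotide.

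None of the 5 hairpins shared a long stretch with another microRNA gene, so their reads could be assigned to a single such gene. The longest exact stretch that any of them shared with another annotated microRNA gene was 14 nt, for Mir335, and 11 to 13 nt for the others. Of the 426 tested genes, 105 (24.6%) shared at least 20 nt with another microRNA gene, a length at which reads can be placed at several loci and lost from the gene. Matches elsewhere in the genome were not looked for.

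Depth was 3937840 reads on the genes' own strand in replicate 1 and 4839647 in replicate 2, out of 8327917 and 10507754 reads in all. Reads placed at several loci, which are given to no gene, were 35.4% of all reads in replicate 1 and 34.2% in replicate 2. CPM stands for a gene's count scaled to the library's own-strand total. A gene with no read could still have had 3, which is 0.762 CPM in replicate 1 and 0.620 CPM in replicate 2, if counting is the only error. The Hox cluster markers Mir10a, Mir10b and Mir196b, which sit beside the Hox genes of hindbrain and trunk, were all measured, at 9.09% of gene reads in replicate 1 and 13.0% in replicate 2. The brain markers held 4.02% and 4.10%, with 10 of 11 symbols found and Mir149 with the highest count. The Mir124a, Mir9 and Mir128 genes found share at least 20 nt with another microRNA gene and can lose reads. The brain share may thus be too low, and the order of its genes is uncertain. Of the 7 striated muscle markers found, 4 had no read in either library: Mir133b, Mir1a-1 and the 2 Mir133a genes. Shared stretches were not looked up for these 4, and reads placed at several loci are given to no gene. Their zeros thus do not show absence. The other 3, Mir206, Mir208b and Mir499, were detected, and the list summed to 43.9 CPM in replicate 1 and 57.4 in replicate 2.

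Mir335 was the dominant gene of the set. It had 165947 reads in replicate 1 and 176630 in replicate 2, or 42142 and 36496 CPM. Its mean was 39319 ± 3992 CPM (SD, n = 2), 3.93% ± 0.399 of all gene reads. It ranked 6th of 1973 by mean level, 5th in replicate 1 and 7th in replicate 2. Among the 176 tested genes in an intron of a protein-coding gene it was 3rd by mean level. Genes that share long stretches can lose reads, so the ranks and the share of Mir335 may be too high. In human breast cancer cells miR-335 is known to repress SOX4 and the matrix protein tenascin C.

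The Gnas-region pair stood at nearly equal levels. Mir296, known in human endothelial cells for its action on the growth factor receptor sorter HGS, had 11454 reads in replicate 1 and 13511 in replicate 2. These were 2909 and 2792 CPM, with a mean of 2850 ± 82.7 CPM (SD, n = 2) and rank 58. Mir298, whose mouse product is known to act on Bace1, the beta-secretase of amyloid precursor protein, had 10727 and 13746 reads. Its levels were 2724 and 2840 CPM, with a mean of 2782 ± 82.2 CPM (SD, n = 2) and rank 61. The ranges of the 2 genes overlapped, and the higher gene was Mir296 in replicate 1 and Mir298 in replicate 2. Their order was thus not separable.

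The Igf2-H19 pair was lower, and unequal. Mir483, the microRNA in Igf2, had 623 reads in replicate 1 and 672 in replicate 2, or 158 and 139 CPM. Its mean was 149 ± 13.7 CPM (SD, n = 2), and its rank 187. Mir675, which is cut from H19 itself and is known in mouse placenta to restrain growth and to act on Igf1r, had 21 and 23 reads. These were 5.33 CPM (exact Poisson 95% interval 3.30 to 8.15) in replicate 1 and 4.75 CPM (3.01 to 7.13) in replicate 2, with a mean of 5.04 ± 0.410 CPM (SD, n = 2) and rank 330. Both intervals lay above the limit that a count of 0 allows, so Mir675 was detected, at a level that rests on few reads. Reads carry no molecular identifiers in these tables, so intervals cover counting error only.

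**Figure D2:**
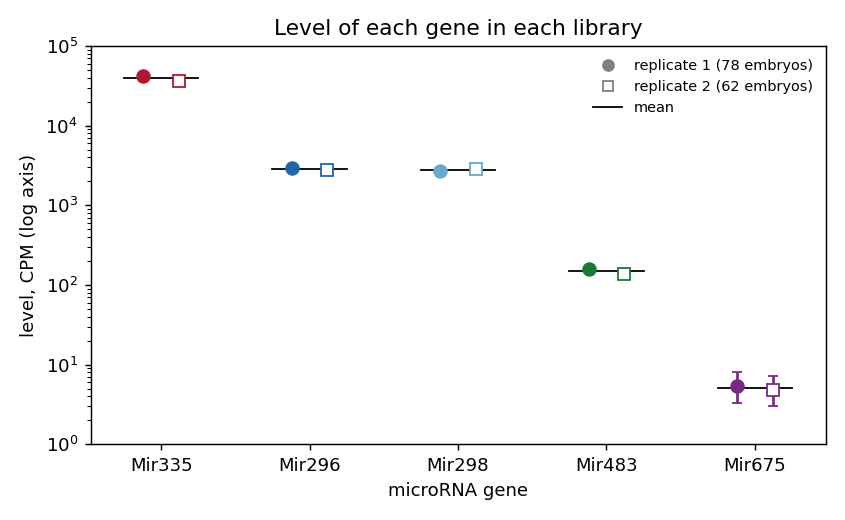
Level of each gene (vertical, CPM, log axis) in replicate 1 (filled circles) and replicate 2 (open squares), with exact Poisson 95% intervals as error bars and the mean as a line. Mir335 lies near 39319 CPM, Mir296 and Mir298 near 2850 and 2782, Mir483 near 149 and Mir675 near 5.04, and the libraries differ far less than these steps.

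The steps between loci were far larger than the spread between the pools. An error that acts on a gene alike in both libraries is not part of that spread. The steps are therefore ratios of reads, and need not be ratios of molecules. The same holds for every comparison of levels between genes given here. Mir335 exceeded Mir296 14.5-fold in reads in replicate 1 and 13.1-fold in replicate 2. Mir296 exceeded Mir483 18.4-fold in replicate 1 and 20.1-fold in replicate 2. Within the Igf2-H19 domain, Mir483 exceeded Mir675 29.7-fold in replicate 1 (exact 95% interval 19.2 to 48.3) and 29.2-fold in replicate 2 (19.3 to 46.4). From end to end, Mir335 had 7902 and 7680 times the reads of Mir675. With 2 libraries an exact permutation test between 2 genes cannot give a two-sided p below 0.33, so no p is given for the order. Scaled by the length of the annotated hairpin (RPKM, CPM per kilobase), the order was the same: 401215 ± 40732 RPKM for Mir335, 36079 ± 1047 for Mir296, 33929 ± 1002 for Mir298, 2035 ± 187 for Mir483 and 60.0 ± 4.89 for Mir675 (SD, n = 2). The hairpins were 73 to 98 nt long, so this scaling could not reverse the steps between loci and adds no evidence for the order.

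Together the 5 genes took 4.79% of gene reads in replicate 1 and 4.23% in replicate 2, with a mean of 4.51% ± 0.401 (SD, n = 2). Mir335 alone made up 87.9% of the 5 genes' reads in replicate 1 and 86.3% in replicate 2, so this sum is in effect the level of Mir335. Mir296 contributed 6.07% and 6.60%, Mir298 5.68% and 6.72%, Mir483 0.33% in each, and Mir675 0.0111% and 0.0112%.

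Other imprinted microRNA loci gave a scale for these levels. The 59 genes annotated between Dlk1 and Dio3 took 9.75% of gene reads in replicate 1 and 9.33% in replicate 2. The highest of them, Mir487b, had 34649 ± 1658 CPM (SD, n = 2), and Mir369 had 9258 ± 528 CPM. Mir335 exceeded Mir487b 1.18-fold in replicate 1 and 1.09-fold in replicate 2, but the mean ± SD ranges of the 2 genes overlapped, so they were not separable by this measure. The 107 genes annotated in Sfmbt2 took 0.543% and 0.528%, led by Mir467d at 1619 ± 27.8 CPM and Mir467e at 1517 ± 5.42 CPM, and 79 of them had no read in either library. Mir296 and Mir298 each stood above Mir467d in both libraries. All 10 of the tested Sfmbt2 genes and 9 of the 47 tested Dlk1-Dio3 genes shared at least 20 nt with another microRNA gene, against 0 of the 5, so the Sfmbt2 levels in particular may be too low. The median of the genes tested was 2782 CPM for the 5 imprinted-locus genes, 388 CPM in the Dlk1-Dio3 region, 251 CPM in Sfmbt2 and 95.3 CPM over all 426. Genes below 10 reads in both libraries are left out of these medians. With them, the median was unchanged for the 5 genes, 137 CPM in the Dlk1-Dio3 region, and 0 both in Sfmbt2 and over all 1973 genes.

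**Figure D3:**
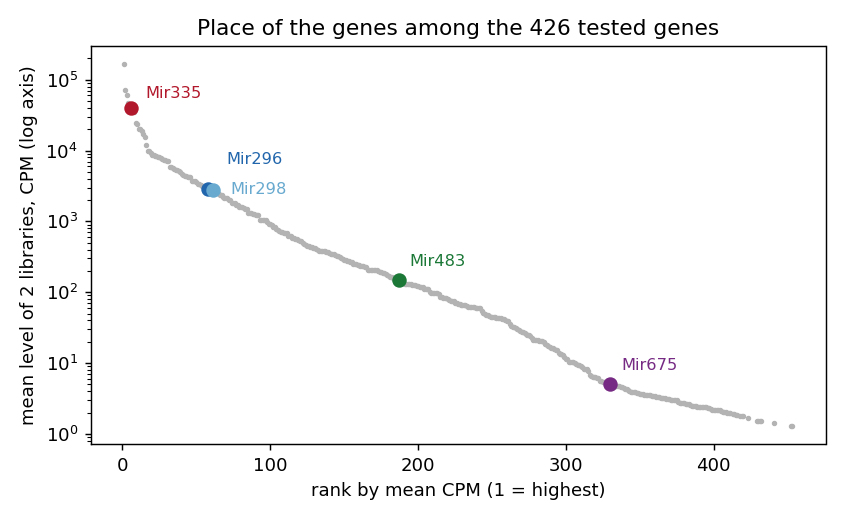
Mean level of the 2 libraries (vertical, CPM, log axis) against rank by that mean (horizontal) for the 426 tested genes (grey), with the 5 imprinted-locus genes coloured. The genes fall at ranks 6, 58, 61, 187 and 330, which spreads them over most of the curve.

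The genes that stood next to each of the 5 in mean level were looked up. None could be separated from its member by the spread of the libraries, which the choice by closeness in level makes likely. Directly above Mir335 was Mir10b at 39376 ± 13012 CPM, and directly below it Mir100 at 38974 ± 2142 CPM (SD, n = 2). Mir449a, at 2854 ± 555 CPM, stood above Mir296, and Mir183, at 2847 ± 602 CPM, below it. For Mir298 these were Mirlet7f-2 and Mir15a, for Mir483 Mir148b and Mir668, and for Mir675 Mir26a-1 and Mir5626.

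Likeness over the 2 libraries was measured as the Euclidean distance between log2(CPM + 1) values, which rests on 2 points and mostly reflects level. By it, Mir100 (distance 0.0689), Mir487b (0.265) and Mirlet7i (0.354) were nearest to Mir335, and of these Mirlet7i was separably higher, at 46442 ± 2016 CPM (SD, n = 2). Nearest to Mir296 were Mirlet7f-2 (0.0215), Mir15a (0.0702) and Mir298 (0.0978). Nearest to Mir298 were Mir15a (0.0941), Mir296 (0.0978) and Mir324 (0.0985). Mir148b (0.0674), Mir331 (0.111) and Mir542 (0.139) were nearest to Mir483, and Mir147 (0.0590), Mir297a-2 (0.122) and Mir3076 (0.132) to Mir675. Of these neighbours, Mir487b, Mirlet7f-2, Mir297a-2 and Mir26a-1 share at least 20 nt with another microRNA gene, and their levels are uncertain.

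The pools were then compared, with replicate 1 over replicate 2 after TMM scaling, by an exact binomial test. The test sets 1 library against the other and allows for counting error alone. Mir335, Mir296 and Mir483 were higher in replicate 1, and Mir298 and Mir675 did not pass. Mir335 had a log2 ratio of 0.22 (exact 95% interval 0.21 to 0.23), with an adjusted exact p too small for double precision. Mir483 had a log2 ratio of 0.21 (0.05 to 0.36; exact binomial adjusted p = 0.0317), about the size of that of Mir335. Mir296 had a log2 ratio of 0.08 (0.04 to 0.11; exact binomial adjusted p = 0.000163). Mir298 was at -0.04 (-0.08 to -0.01; exact binomial adjusted p = 0.0525), and Mir675 at 0.18 (-0.74 to 1.10; exact binomial adjusted p = 0.868), with an interval too wide to place it.

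These calls have to be read against the whole table, in which counting error alone is a narrow yardstick. Of the 426 genes tested, 35.9% were called in either direction, 20.7% higher in replicate 1 and 15.3% lower. The share called depended on level. Near Mir335 (within 2-fold of its level) 10 of 10 other genes were called, near Mir296 39 of 50 and near Mir298 39 of 49. Near Mir483 it was 20 of 73, and near Mir675 7 of 77. For the abundant members 35.9% is therefore a low yardstick, and the 3 calls are not read as an excess. Of the 5 genes 3 were called, all higher in replicate 1, and none differed by 1.5-fold, whereas 5.4% of all tested genes were called and differed by that much. The median log2 ratio was 0.18 over the 5 genes and 0.01 over the 426. That 0.18 is the ratio of Mir675 itself, whose interval is too wide to place it, so the median does not place the set. When a coefficient of variation of 0.1 between pools was allowed for every gene, edgeR's exact test called 1.41% of the 426 genes and gave an adjusted p of 1 for each of the 5, so the 3 calls were lost. With other scalings or count minimums the calls of Mir296, Mir298 and Mir483 moved across the threshold, and that of Mir335 did not.

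Set beside the 10 genes within 2-fold of its level, whose log2 ratios ran from -0.67 to 0.20, Mir335 had the highest ratio, and 2 of the 10 had a ratio larger in size. For Mir483, 20 of 73 such genes had a larger ratio in size, for Mir296 34 of 50, for Mir298 40 of 49 and for Mir675 61 of 77.

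**Figure D4:**
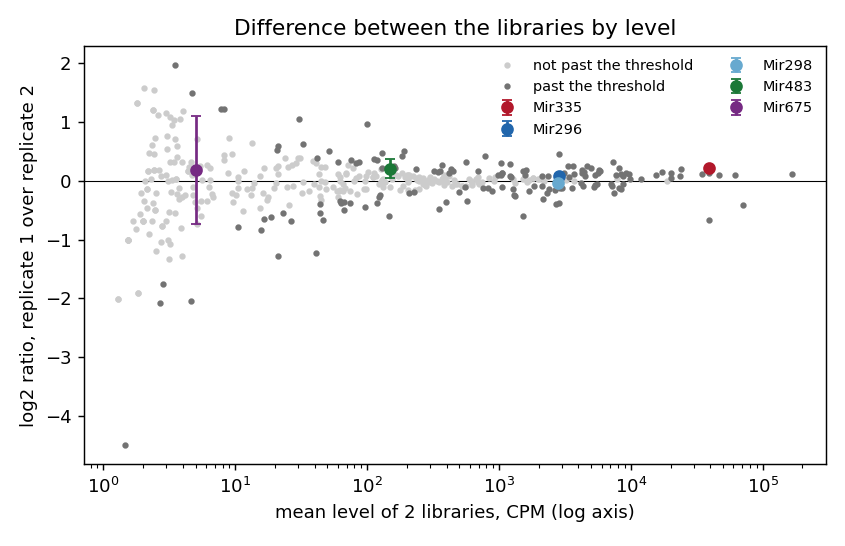
Log2 ratio of replicate 1 over replicate 2 after TMM scaling (vertical) against mean level (horizontal, CPM, log axis) for the 426 tested genes, dark grey where past the exact binomial threshold and light grey where not. The 5 imprinted-locus genes are coloured with exact 95% intervals. Mir335 lies at 0.22 and Mir298 at -0.04, and the interval of Mir675 runs from -0.74 to 1.10.

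Markers of other cells also differed between the pools, and their part in the ratios of Mir335 and Mir483 was not tested. In bulk tissue, fewer cells of a type and less RNA per cell cannot be told apart. Over all 426 tested genes 20.7% were called higher in replicate 1 and 15.3% lower, and the share called was larger among abundant genes. The counts of called markers are descriptive only. The mesenchymal, meningeal and smooth muscle list, with 6 of 6 markers found, summed to 6623 CPM in replicate 1 and 5913 in replicate 2, and 3 of its 5 tested genes were called higher in replicate 1. Its most abundant member, Mir143, had a log2 ratio of 0.17 (0.15 to 0.20). Endothelial Mir126a, the only marker of its list, had 25702 and 22600 CPM, with a log2 ratio of 0.20 (0.19 to 0.21). The erythroid list (2 of 2 found) summed to 173 and 125 CPM, and the leukocyte list (3 of 3) to 478 and 377 CPM. The choroid plexus and ciliated epithelium list (6 of 6 found) went the other way, with 5610 CPM in replicate 1 and 7169 in replicate 2, and 4 of its 5 tested genes were called lower in replicate 1. In these lists Mir126a, Mir451a, Mir199b and Mir199a-2 share at least 20 nt with another microRNA gene and can lose reads, so their levels are uncertain. No marker of these 5 lists was at 0 in both libraries. The Hox cluster list (3 of 3 found) shifted more than these in absolute level, with 90895 CPM in replicate 1 and 130462 in replicate 2. All 3 of its genes were called lower in replicate 1, and 2 of them by at least 1.5-fold. The brain list summed to nearly the same in both, 40200 CPM in replicate 1 and 41014 in replicate 2. Of the 10 brain markers, 4 were called lower in replicate 1 and 2 higher, with a median log2 ratio of -0.23. That median includes the Mir124a genes and Mir9-2, which had few reads. Of the 3 tested striated muscle markers, Mir208b was called lower in replicate 1, by at least 1.5-fold, and the other two were not called.

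Ratios between members within a library need no scaling, and 10 pairs were compared between the pools. The share of Mir298 in the reads of Mir298 and Mir296 was 48.4% (exact Clopper-Pearson 95% interval 47.7 to 49.0) in replicate 1 and 50.4% (49.8 to 51.0) in replicate 2, a mean of 49.4% ± 1.46 (SD, n = 2). The 2 libraries differed in this share beyond counting error (Fisher's exact test, two-sided, p = 4.74e-06, and 1.58e-05 adjusted over the 10 pairs). The pair was near even in both. Mir335 relative to Mir298 was 15.5-fold in replicate 1 and 12.8-fold in replicate 2 (Fisher's exact test, adjusted p = 2.77e-43), the pair whose ratio differed most in size.

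The ratio of Mir335 to Mir483, both in introns of imprinted hosts, did not pass. Mir335 had 266 times the reads of Mir483 in replicate 1 (exact 95% interval 246 to 289) and 263 times in replicate 2 (244 to 284), with an adjusted exact p of 1 by Fisher's test. Mir483 and Mir675, from the neighbouring loci of opposite imprint, had ratios of 29.7 and 29.2 (adjusted exact p = 1 by Fisher's test). The intervals of this second pair, given above, are wide, so a moderate difference was not detectable at this depth. Of the 10 pairs, 4 passed at an adjusted p of 0.05: Mir335 with Mir296, Mir335 with Mir298, Mir298 with Mir296 and Mir298 with Mir483.

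Few or no reads of these genes lay on the opposite strand. Mir296, Mir298, Mir483 and Mir675 had no read on the opposite strand in either library, which for Mir296 allows a share of up to 0.0262% in replicate 1 and 0.0222% in replicate 2, by counting error. The limit is 0.0280% and 0.0218% for Mir298, 0.482% and 0.446% for Mir483, and 14.3% and 13.0% for Mir675, whose strand is thus little constrained. These limits are 3 reads over the reads of the gene. The exact Clopper-Pearson upper limits (95%, two-sided) are higher, at 0.0322% and 0.0273% for Mir296 and 16.1% and 14.8% for Mir675. Mir335 had 4 opposite-strand reads in replicate 1 and 1 in replicate 2, a share of 0.00241% (exact Clopper-Pearson 95% interval 0.000657 to 0.00617) and 0.000566% (1.43e-05 to 0.00315). Over all genes, 2.22% of gene reads in replicate 1 and 2.09% in replicate 2 lay on the opposite strand. Of the 155 tested genes with at least 1000 reads in both libraries, 132 had none on the opposite strand, so most abundant genes were without them.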

How the data were processed

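Small RNA from 2 pools of mouse hindbrain was sequenced, and the authors deposited raw read counts per gene and strand, on mm10 with GENCODE M4, per the labels and the notes beside the tables. Aligner and counter: not given in the sources used here. Of all reads, 51.6% in replicate 1 and 53.0% in replicate 2 stood in the 4 rows that name no gene and were left out. The tables have no header. Of the 2 single-strand columns, the larger in total was used as the genes' own strand. Symbols came from GENCODE M21 by identifier, for 1894 of 1973 rows.

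CPM is the count over the library's own-strand total. For the 426 genes that reached 10 reads in a library, TMM-scaled counts (edgeR 4.0.16, R 4.3.3) were compared by an exact two-sided binomial test with Benjamini-Hochberg adjustment over all 426 and a threshold of 0.05. With 1 library on each side no model with residual error could be fitted. The test was checked on simulated Poisson counts without added variation between pools, so the check covers counting error only. Hairpins were folded with ViennaRNA 2.7.2. Python 3.11.15 and scipy 1.17.1 were used. DESeq2 1.42.0 size factors, total counts, other count minimums, both strands and edgeR's exact test were alternatives. Named genes are the 5 members, those next to and nearest to each in level, the leading genes of 2 other imprinted loci, and genes of the marker lists where they stand beside a result. Of the marker lists not described above, the liver list summed to 163 CPM in replicate 1 and 187 in replicate 2, and the pancreas and endocrine list to 1191 and 1324. In the liver list 1 of 3 tested genes, Mir122, was called lower in replicate 1, by at least 1.5-fold. In the pancreas and endocrine list 3 of 4 were called lower, none by 1.5-fold. No gene of either list was called higher. Over all 426 tested genes 20.7% were called higher in replicate 1 and 15.3% lower. Members and lists were chosen with earlier results of these data known.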

Additional observations from a re-analysis of the deposited data

Results flagged for a closer look

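Mir335 had 4 reads on the strand opposite to the gene in replicate 1, a column that the levels do not use. This is above the 3 reads that a count of 0 allows, and replicate 2 had 1 such read.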

How the results depend on the processing

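Over the 5 alternatives that also allow counting error only, the log2 ratio of each gene kept its sign: 0.19 to 0.22 for Mir335, 0.04 to 0.08 for Mir296, -0.07 to -0.04 for Mir298, 0.17 to 0.21 for Mir483 and 0.15 to 0.18 for Mir675, which the minimum of 50 reads leaves out. Mir298 passed with total counts (-0.0603), DESeq2 size factors (-0.0582), a minimum of 1 read (-0.0746) or 50 reads (-0.0554) and both strands together (-0.0509). Mir483 no longer passed with total counts (0.19), size factors (0.19) or a minimum of 1 read (0.17), and Mir296 with a minimum of 1 read (0.0449). The adjusted exact p ranged from 0.000477 to 0.0525 for Mir298, 0.0317 to 0.128 for Mir483 and 0.000163 to 0.0704 for Mir296. With edgeR's exact test at a coefficient of variation of 0.1 or 0.2, Mir335 (0.22), Mir296 (0.0761) and Mir483 (0.21) did not pass. It called 6 genes at 0.1 and 0 at 0.2, with 32 and 12 at an unadjusted p under 0.05, against 153 by the exact binomial test. Of those 153, 88 were higher in replicate 1 and 65 lower, and with a minimum of 1 read the split was 65 and 72. The cause of these shifts was not tested. With all reads of a library as the denominator, which includes reads given to no gene, the mean levels were 18368, 1331, 1298, 69.4 and 2.36 CPM for Mir335, Mir296, Mir298, Mir483 and Mir675. Leaving out 1 library gave 36496 to 42142, 2792 to 2909, 2724 to 2840, 139 to 158 and 4.75 to 5.33 CPM, and a Mir298 share of 48.4% to 50.4%. No paired analysis was possible because there is 1 group. With 2 pools and no test between conditions, depth limits Mir675 in particular.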
